A study of Mus musculus with 6 samples.

Results

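The clustered histone genes are the genes of the mouse histone clusters Hist1 to Hist4, taken here as every gene whose deposited symbol starts with Hist1h, Hist2h, Hist3h or Hist4h. The rule found 68 of the 24391 genes in the deposited count table, of which 6 encode the linker histone H1, 18 encode H2A, 19 encode H2B, 12 encode H3 and 13 encode H4. The H2B genes include 1 pseudogene, Hist3h2bb-ps. RNA was measured in Neuro2a cells, a mouse neuroblastoma line, in 3 control samples given vehicle and 3 samples given 5 mM D-serine, the D-enantiomer of serine, which acts on NMDA receptors together with glutamate. All 6 samples were kept for 18 h in a medium named D-MEM(-SG) with 10% fetal bovine serum. The samples come from 1 cell line, and the labels do not say whether they were separate cultures, so the p-values measure the spread between these samples, which may be technical.

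Clustered histone genes supply the bulk of new histones while DNA is copied in S phase. Their main mRNAs carry no introns and no poly(A) tail, and end just after a short hairpin, the histone stem-loop, which is bound by the stem-loop binding protein Slbp and cut by a complex that contains the U7 small nuclear RNA. Some of these genes also make a longer form that runs past the stem-loop and receives a poly(A) tail, and a selection for poly(A) RNA is expected to take up the tailed form better.

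The stem-loop is shown first because it marks the end of the form without a tail. It was searched for by its name, histone stem-loop, as a 16-base pattern in the 100 bases after the stop codon of GENCODE M21 transcripts (GRCm38), and was found in 46 of the 67 members with an annotated coding part and in 6 of 51546 other transcripts with such a stretch (0.0116%). The following windows of 30 bases have the stem-loop in capitals and are written 5′ to 3′ in the sense of the mRNA.
Hist3h2a: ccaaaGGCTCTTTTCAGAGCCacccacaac
Hist3h2ba: ccaaaGGCTCTTTTCAGAGCCaccttccaa
Hist1h1c: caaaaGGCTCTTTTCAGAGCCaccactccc
Hist1h3g: ttaaaGGCTCTTCTTAGAGCCacccatctt
Hist1h3c: aaaaaGGCTCTTTTAAGAGCCacctaagat
Hist2h4: ctaacGGCCCTTTTTAGGGCCaaccacagt
Hist1h4a: ccaaaGGCCCTTCTCAGGGCCgcccacatt
Hist4h4: acaaaGGCCCTTTTCAGGGCCcacaaagca

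In GRCm38 the capitals lie at chr11:58955172-58955187 (Hist3h2a, plus strand), chr11:58949349-58949364 (Hist3h2ba, plus), chr13:23739512-23739527 (Hist1h1c, plus), chr13:23535889-23535904 (Hist1h3g, plus) and chr13:23745047-23745062 (Hist1h3c, minus). Those of the H4 genes lie at chr3:96262939-96262954 (Hist2h4, minus), chr13:23760800-23760815 (Hist1h4a, minus) and chr6:136803998-136804013 (Hist4h4, minus). The stem-loop started 22 to 59 bases after the stop codon, with a median of 32. The form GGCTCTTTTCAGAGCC was found in 26 members, among them Hist3h2a and Hist3h2ba, and in no H4 gene. The 12 H4 genes with a stem-loop carried other forms, most often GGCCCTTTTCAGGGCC, which was found in 7. Of the 21 members with a coding part and no match, 16 had fewer than 40 annotated bases after the stop codon, so the absence of a match there says nothing of the gene. Hist2h2be and Hist1h2bc were among the 4 with no match in 100 or more annotated bases.

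In 23 members the GENCODE transcript ran 100 or more bases past the stem-loop, and in 16 of these the stretch past it held AATAAA or ATTAAA, the hexamers that mark sites of polyadenylation. In the other 23 the transcript ended within 100 bases of the stem-loop, and 1 of these held a hexamer. The Hist3h2a transcript ran 1643 bases past the stem-loop with 2 hexamers and that of Hist3h2ba 169 bases with 1. The model counted by the authors was 508 bases long for Hist3h2a, against 2146 bases in the GENCODE transcript, so most of that extension lies outside the counted exons.

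Libraries held 32518483 to 40024265 counts, and the 68 members together had 1205 to 1839 counts. Levels are given in CPM, the count scaled to the size of its library. Neuroblastoma markers were present, with 9 of 14 at a mean of 5 CPM or more, while Nefl and Nefm of that list were at or near 0. Markers of other cell types (11 genes) summed to 23.0 to 23.9 CPM in control and 19.0 to 23.1 CPM with D-serine, and only Mbp reached 5 CPM.

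Most clustered histone genes were barely seen in this RNA. At least 1 count was found in 59 members, while 9 had none in any library, where 3 counts correspond to 0.0744 to 0.0929 CPM depending on the library. The mean count was above 100 in 3 members, from 10 to 100 in 32 and below 10 but above 0 in 24. The median member, with a mean count of about 10, has a 95% Poisson interval of 4.8 to 18.4 counts in a single library, for counting error only. Of the 9 members at 0, Hist1h2aa and Hist1h2ba, which encode histones known from testis, have gene models of their own. The other 7 belong to the 10 members whose deposited model shares bases on the same strand with a near-identical neighbour, in the pairs Hist1h2bq and Hist1h2br, Hist1h2ao and Hist1h2ap, Hist1h4m and Hist1h4n, Hist2h3c1 and Hist2h3c2, and Hist2h2aa1 and Hist2h2aa2. How reads in shared bases were counted is not given in the sources used here, so a 0 in these 7 members cannot be read as absence of their RNA.

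Levels between genes were compared per length, as CPM per kb of the deposited exons averaged over the 6 libraries. The median member was at 0.525 CPM per kb, while the median of 11 replication-independent histone genes, which are expressed outside S phase and make polyadenylated mRNA, was 46.8. Hist3h2ba (14.4 CPM per kb) and Hist3h2a (10.3) led the members, followed by Hist2h4 (4.49), Hist2h2bb (4.0) and Hist1h1c (2.99). The order of these genes follows no single histone type: the leading members were an H2B, an H2A, an H4, a second H2B and an H1 gene. The median was 0.769 CPM per kb in members whose GENCODE transcript runs past the stem-loop, 0.173 where it ends near the stem-loop and 0.698 where no stem-loop was found. These medians are a description of 23, 23 and 22 genes, and the ranges overlapped.

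**Figure D1:**
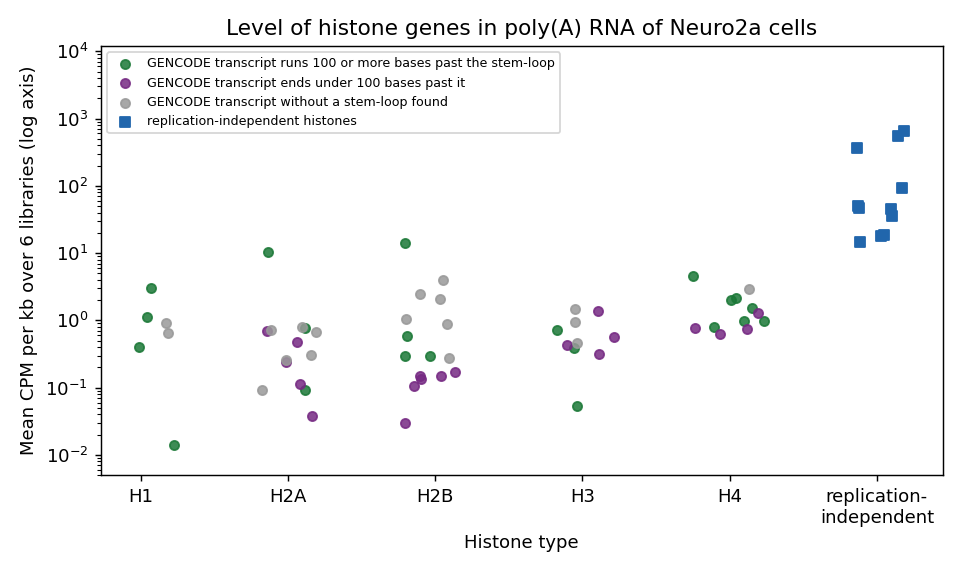
Mean level of each clustered histone gene over 6 libraries, in CPM per kb of deposited exons on a log axis, by histone type, with 11 replication-independent histone genes at the right; the 9 members without counts are not drawn. Colours give the form of the GENCODE transcript. Apart from Hist3h2ba at 14.4 and Hist3h2a at 10.3, the members lie under 5 CPM per kb, and the median of the replication-independent genes is 46.8.

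The members also resemble each other in sequence, which bears on how well reads can be placed. The median member shared 49.4% of the 50-base stretches of its GENCODE transcript with other transcripts, and 32 members shared more than 50%. Hist2h2be shared none, Hist3h2ba 22.1% and Hist3h2a 31.5%, whereas Hist1h3h shared 93.9% and Hist1h3i 87.6%. Values of the last genes are therefore uncertain, since the handling of reads that fit several places is not given in the sources used here. These shares are of GENCODE transcripts and not of the counted exons. For Hist3h2a, 660 of 2097 stretches were shared, on a transcript of 2146 bases beside a counted model of 508. The share within its counted bases is not given here and may be higher than 31.5%, so its reads may also be hard to place.

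D-serine samples were compared with control samples gene by gene in edgeR's quasi-likelihood test, with p-values adjusted by Benjamini and Hochberg over all genes tested. Of the 68 members, 36 had enough counts to be tested and 32 had not. Hist3h2a rose and no member fell at an adjusted p under 0.05. Over all 13366 genes tested, 4.84% rose and 4.90% fell (9.74% in either direction), so the share of members called was not above that of all genes. At an unadjusted p under 0.05 there were 7 members (1 H1, 1 H2A, 2 H2B, 3 H3 and 0 H4 genes), of which Hist1h3h was lower and the other 6 higher, against 28.2% of all genes tested. DESeq2 called 2 members higher, beside 5.59% of all genes, and 0 lower, beside 6.72%. Of the named members, it gave Hist1h1a, Hist1h1e, Hist1h2af, Hist1h3c, Hist1h3g, Hist1h3h, Hist1h3i and Hist1h4a no adjusted p. Its counts therefore do not cover these members, and its shares are over all 13366 genes, with or without an adjusted p. Limma-voom called 1 higher, beside 4.44% of all genes, and 0 lower, beside 4.99%. The precision differed widely between these sets, with a median standard error of the log2 fold change of 0.44 in the members and 0.072 over all genes. Among all tested genes with a mean count under 100, 1.71% were called.

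Hist3h2a, which encodes an H2A of the small Hist3 cluster, had 152, 147 and 159 counts in the control libraries (replicates 1 to 3, the order used for every gene) and 239, 234 and 245 counts with D-serine. The D-serine libraries, at 6.09, 6.36 and 6.08 CPM, all lay above the control libraries, at 4.71, 3.96 and 4.27 CPM. The log2 fold change was 0.52 with a standard error of 0.12 (edgeR adjusted p = 0.0243). The call was lost without control replicate 1 (adjusted p = 0.0583), control replicate 2 (0.105), control replicate 3 (0.0667) or D-serine replicate 3 (0.0712), while the log2 fold change stayed between 0.46 and 0.59 whichever library was left out.

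Hist3h2ba, the H2B gene of the same cluster, had 140, 219 and 236 counts in control and 356, 256 and 290 with D-serine. In CPM the control libraries were at 4.34, 5.90 and 6.34 and the D-serine libraries at 9.07, 6.96 and 7.20, so the groups did not overlap, with D-serine replicate 1 highest and control replicate 1 lowest. The log2 fold change was 0.48 with a standard error of 0.15, and the edgeR adjusted p of 0.0619 missed the threshold. It passed in 5 of the 18 alternatives tried, among them DESeq2 (adjusted p = 0.0300), in which 5.59% of all genes rose. The third gene of the cluster, the pseudogene Hist3h2bb-ps, had 10, 12 and 14 counts in control and 14, 12 and 30 with D-serine, which overlapped, and its log2 fold change was 0.50 with a standard error of 0.45.

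The deposited models of these 3 genes lie at chr11:58762413-58768694, in 6282 bases, with Hist3h2bb-ps on the minus strand and the others on the plus strand. The coordinates are those of the deposited table, whose build was not settled. Of 6 other genes within 50 kb, 5 were tested and none passed the threshold, beside 9.74% of all genes tested. The nearest tested neighbours, Rnf187 and Trim17, had log2 fold changes of -0.05 (standard error 0.04) and 0.16 (standard error 0.19). Of the 3 Hist3 genes only Hist3h2a passed the threshold, and their fold changes were not tested against those of their neighbours.

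**Figure D2:**
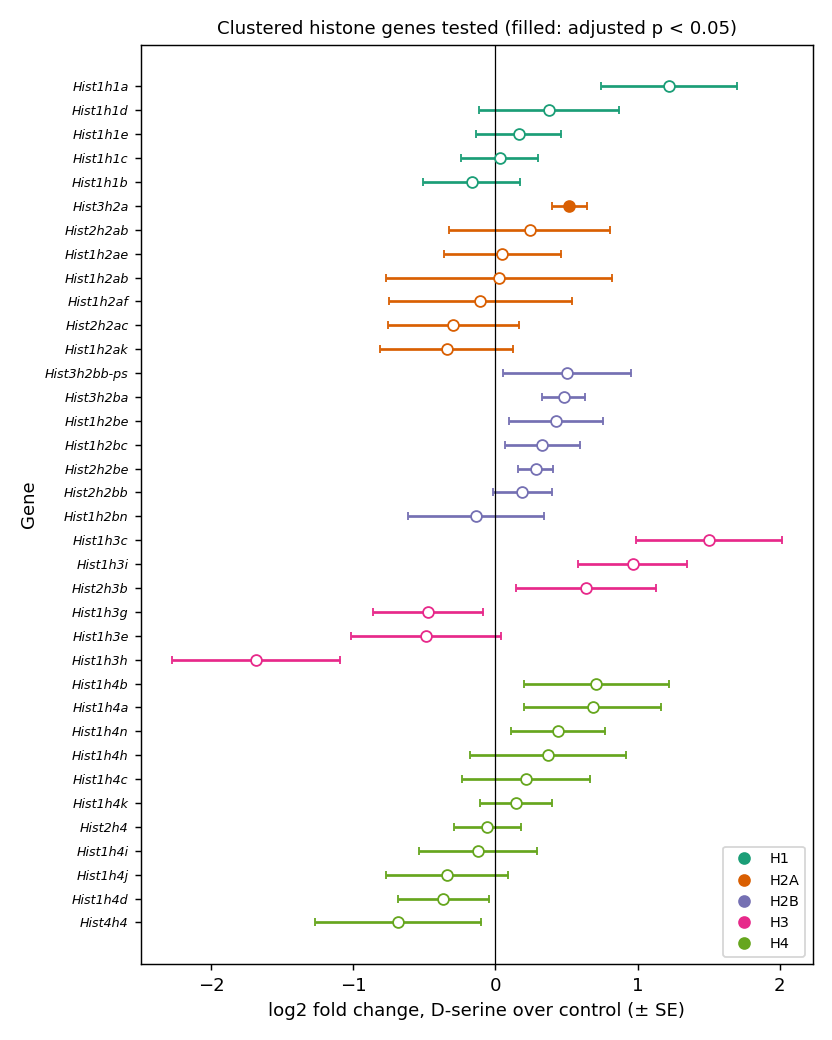
Log2 fold change of D-serine over control for the 36 clustered histone genes tested, with bars of 1 standard error, by histone type; a filled point marks an adjusted p under 0.05 in edgeR's quasi-likelihood test. Hist3h2a, at 0.52, is the filled point, and genes with larger changes, such as Hist1h3c at 1.5 and Hist1h3h at -1.69, have wide bars.

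Summed over all 68 members, tested or not, the level was higher with D-serine. The sums were 37.3, 39.3 and 39.4 CPM in control and 46.8, 45.1 and 45.6 with D-serine, with means of 38.7 ± 1.17 and 45.9 ± 0.892 (SD, n = 3 each). Every D-serine library lay above every control library, and the ratio of the means was 1.19. Over single genes, 32.9% of all 13366 tested did not overlap between the groups, and 7 of the 36 members tested did not, 5 of them higher with D-serine, as were 16.2% of all genes. Members of the Hist3 cluster made up much of the difference, as their sum went from 10.2 ± 0.815 to 14.4 ± 0.992 CPM. Without them the sums were 28.5 ± 0.555 and 31.5 ± 0.144 CPM, still without overlap, and the ratio was 1.10.

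The median log2 fold change of the 36 tested members was 0.18, with 23 above 0 and 13 below, beside 0.0053 over all genes, of which 51.5% were above 0. Clustered histone genes are short, and short genes of the whole table stood at a median of 0.11 (1087 genes under 1000 bases), with D-serine replicate 1 the library that deviated most upward in them, by 0.14 on the log2 scale. With the trend of each library on gene length removed, the median was 0.06 in the members and -0.02 over all genes. What part length has in the members' median was not tested beyond this. Without D-serine replicate 3 the members' median was 0.09, and without any other single library it lay between 0.16 and 0.21. The median of short genes is given here for all libraries only, so it cannot be set beside these values. Genes with a mean count under 100, to which 33 of the tested members belong, had a median of 0.10. With the length trend removed their median was 0.05. On that setting the median was -0.0039 in genes under 1000 bases and 0.01 in genes with both traits.

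Linker histones of type H1, which bind DNA between nucleosomes, showed no call among 5 genes tested. Hist1h1c, the H1 gene with the highest level, had 1.15, 2.61 and 2.66 CPM in control and 2.42, 2.17 and 2.01 with D-serine. Control replicate 1 was the low value and the groups overlapped (log2 fold change 0.03, standard error 0.27). Hist1h1e, another widely expressed H1, had 24, 29 and 35 counts against 35, 39 and 33. Its log2 fold change was 0.16 with a standard error of 0.30. Hist1h1a had 8, 17 and 6 counts in control and 36, 27 and 16 with D-serine, with overlap between the highest control and the lowest D-serine library, and a log2 fold change of 1.22 with a standard error of 0.48 (edgeR adjusted p = 0.117). Hist1h1t, the testis form of H1, was at 0.0140 CPM per kb and was not tested. The sum over 6 H1 genes was 4.32 ± 0.879 CPM in control and 4.85 ± 0.611 with D-serine, with overlap.

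H2A, which pairs with H2B in the nucleosome, rested on Hist3h2a. The sum over 18 H2A genes was 7.22, 6.79 and 6.98 CPM in control and 8.82, 8.51 and 8.88 with D-serine, without overlap. Without Hist3h2a the sum was 2.68 ± 0.162 in control and 2.56 ± 0.359 with D-serine, and the groups overlapped. The 7 tested H2A genes had a median log2 fold change of 0.03. Hist1h2af, the next by level per length, had 1, 30 and 12 counts in control and 17, 10 and 16 with D-serine, so control libraries held both the lowest and the highest value, and 79.7% of its 50-base stretches occurred elsewhere.

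H2B had the highest sum of the 5 types, at 14.5, 16.8 and 17.6 CPM in control and 22.1, 19.3 and 20.8 with D-serine. The groups did not overlap, and 6 of 7 tested H2B genes had a log2 fold change above 0, with a median of 0.33. None passed the threshold. Hist2h2be, a gene known from olfactory sensory neurons and named here after its values were seen, had the only other mean count above 100. It was at 4.74, 4.88 and 5.18 CPM in control and 5.56, 6.17 and 6.30 with D-serine. These libraries did not overlap, and the log2 fold change was 0.28 with a standard error of 0.12 (edgeR adjusted p = 0.147). Hist2h2bb, second among H2B genes per length, had 64, 63 and 69 counts against 70, 81 and 93, with a log2 fold change of 0.19 and a standard error of 0.21. Its CPM values overlapped between the groups. Without Hist3h2ba and Hist2h2be the H2B sum was 5.85 ± 0.401 in control and 7.0 ± 0.748 with D-serine, and the groups still did not overlap, by a margin of 6.12 to 6.15 CPM.

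Hist3h2a, Hist3h2ba and Hist2h2be together gave 36.9% to 40.1% of the members' counts in control and 42.9% to 44.2% with D-serine. The sum of the other 65 members was 23.9 ± 0.542 CPM in control and 25.9 ± 0.277 with D-serine, a ratio of 1.08 without overlap. On the log2 scale this ratio was 0.12. The median log2 fold change of all tested genes under 1000 bases was 0.11. The 2 are unlike measures, since a sum is weighted by its abundant genes and includes members not tested. Genes with a mean count under 100 had a median of 0.10. No sum is given here with the length trend removed, and the part of length in the sums was not tested.

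**Figure D3:**
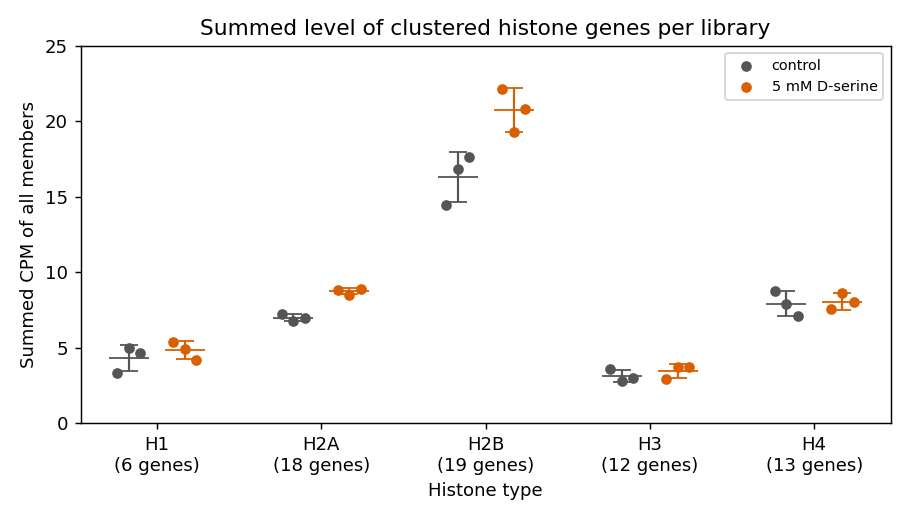
Summed CPM of all clustered histone genes of each type in each library, with the mean and SD as bars (n = 3 per group). The control and D-serine libraries are apart for H2A and H2B and overlap for H1, H3 and H4.

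H3 and H4 form the core on which the nucleosome is built, and no gene of either type passed the threshold. The H3 sum was 3.12 ± 0.393 CPM in control and 3.46 ± 0.459 with D-serine, and the H4 sum was 7.93 ± 0.825 and 8.06 ± 0.539 CPM, both with overlap. The H3 genes held the members' largest changes in either direction, all at few counts. Hist1h3c had 4, 3 and 8 counts in control and 16, 16 and 15 with D-serine, a log2 fold change of 1.5 with a standard error of 0.51 (edgeR adjusted p = 0.0786). Hist1h3h had 14, 10 and 12 counts in control and 7, 3 and 2 with D-serine, a log2 fold change of -1.69 with a standard error of 0.59 (adjusted p = 0.0856). Neither gene overlapped between the groups, in opposite directions. Hist1h3c had enough counts to be tested only in its D-serine libraries, and Hist1h3h only in its control libraries. The filter thus let each in through the group where it was high, so its fold change and lack of overlap are partly set by the filter. Both genes are among the 7 members without overlap and the 7 with an unadjusted edgeR p under 0.05.

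Hist1h3h, with a mean count of 8.0, was also the lowest member that entered the test. Hist1h2bg, an H2B gene with 8, 8 and 10 counts in control and 20, 10 and 5 with D-serine, had the highest mean count of those that did not. Hist1h3i, the H3 gene with the highest level per length, had 13, 25 and 13 counts against 27, 32 and 50. Its CPM values did not overlap, and its log2 fold change was 0.97 with a standard error of 0.38 (edgeR adjusted p = 0.122). Hist1h3g had 36, 20 and 27 counts against 16, 20 and 30, with overlap and a log2 fold change of -0.47 (standard error 0.39), which was -0.16 without control replicate 1.

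Among the H4 genes, 11 of 13 were tested, 6 with a log2 fold change above 0 and 5 below. Hist2h4, the H4 gene with the highest level, was at 1.58, 1.70 and 1.99 CPM in control and 1.43, 2.09 and 1.56 with D-serine. The groups overlapped, with a log2 fold change of -0.06 and a standard error of 0.24. Hist1h4k had 36, 44 and 40 counts against 46, 44 and 55 (log2 fold change 0.15, standard error 0.26). Hist1h4a, with the smallest p among H4 genes, had 9, 13 and 14 counts against 34, 19 and 10, and D-serine libraries held both its highest and its lowest CPM. Hist4h4, the single gene of the Hist4 cluster, had 35, 14 and 6 counts in control, a wider range than the 11, 15 and 12 with D-serine (log2 fold change -0.68, standard error 0.58).

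Members whose deposited model was longer than 700 bases or had more than 1 exon were set beside the rest, since such a model may hold more of a tailed form. Of 20 such members, 9 were tested, with a median log2 fold change of 0.33, beside 0.05 for 27 of the 48 others. All 6 H1 genes, 5 of them tested, are among the 20, with models of 725 to 794 bases. For Hist1h1b, at 794 bases, GENCODE gives 0 bases after the stop codon, so its length is no sign of a tailed form. Hist1h4n has 732 bases in 2 exons, of which 366 are shared with Hist1h4m. The split is therefore not one of room for a tailed form alone. The difference in medians was 0.28, and without control replicate 1 it was -0.08, while without any other single library it lay between 0.19 and 0.31, so its sign rested on control replicate 1. Hist1h2bc and Hist1h2be, H2B genes with models of 774 and 2510 bases, had log2 fold changes of 0.33 and 0.43, with standard errors of 0.26 and 0.33.

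RNAs that lack a poly(A) tail gave a second view of what passed the selection. Of 29 such RNAs listed, 13 were in the table and 3 were tested, and none passed the threshold in edgeR, nor an unadjusted p under 0.05. Rn45s, the ribosomal RNA precursor, was at 2552, 3251 and 3338 CPM in control and 2803, 3791 and 3573 with D-serine, with overlap. Its log2 fold change was 0.15 with a standard error of 0.10. Rpph1, the RNA of ribonuclease P, was at 1.61, 2.32 and 1.85 CPM in control and 2.65, 2.69 and 2.33 with D-serine, without overlap. Its log2 fold change was 0.40 with a standard error of 0.20 (edgeR adjusted p = 0.211). Rmrp, the RNA of ribonuclease MRP, had a log2 fold change of 0.50 with a standard error of 0.31. All 3 values lay above 0, as did the members' median, and their part in the members' difference was not tested.

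Among the 11 replication-independent histones, H2afx and H3f3b rose, beside 4.84% of all genes tested, and none fell, beside 4.90%. Of the 11, 6 had a log2 fold change above 0 and 5 below, beside 51.5% of all genes above 0. H2afx, the H2A variant phosphorylated at DNA breaks, whose mRNA is known in both a stem-loop and a tailed form, was at 21.0, 19.3 and 24.6 CPM in control and 26.4, 27.6 and 27.0 with D-serine. The D-serine libraries were all higher, with a log2 fold change of 0.32 and a standard error of 0.083 (edgeR adjusted p = 0.0320). H3f3b, a gene for the variant H3.3, was at 1198, 1266 and 1237 CPM in control and 1418, 1311 and 1391 with D-serine, again without overlap, with a log2 fold change of 0.15 and a standard error of 0.041 (adjusted p = 0.0340). Both calls were lost with the length trend removed (adjusted p = 0.0548 and 0.0679) and without control replicate 1 (0.113 and 0.160), control replicate 2 (0.139 and 0.10) or D-serine replicate 3 (0.0872 and 0.116). That of H2afx was also lost without D-serine replicate 2 (0.0540) and that of H3f3b without control replicate 3 (0.0983). H3f3a, the other H3.3 gene, had a log2 fold change of 0.04, and H2afz one of -0.07, neither past the threshold.

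**Figure D4:**
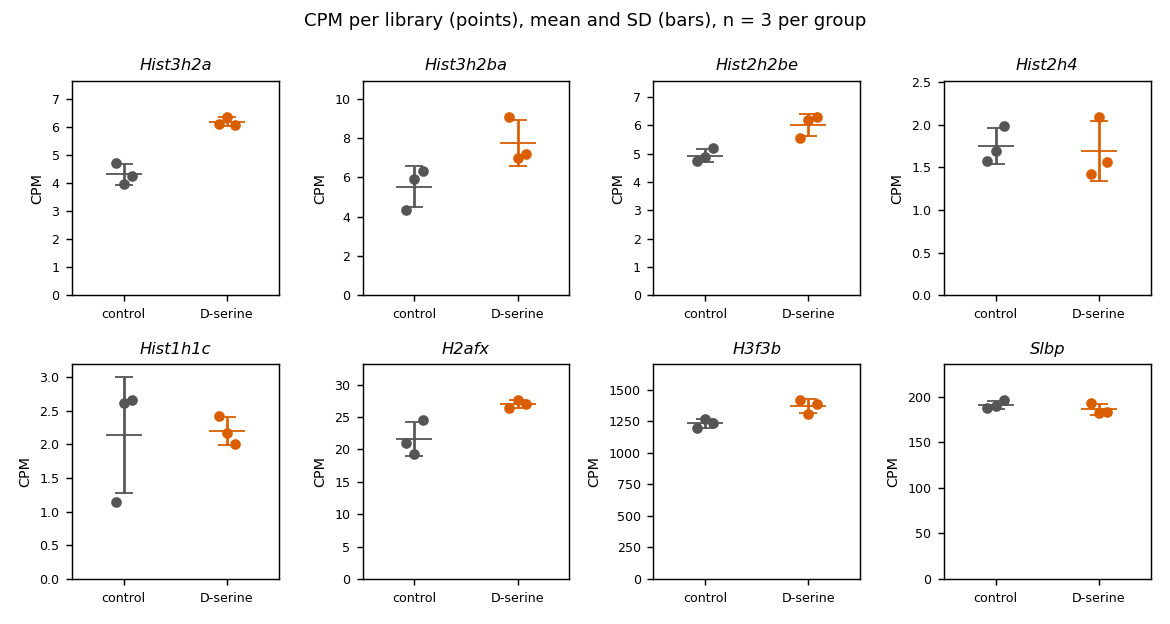
CPM in each library (points), with mean and SD (bars, n = 3 per group), for 5 clustered histone genes, the replication-independent H2afx and H3f3b, and Slbp; each vertical axis starts at 0. The groups are apart for Hist3h2a, Hist3h2ba, Hist2h2be, H2afx and H3f3b and overlap for Hist2h4, Hist1h1c and Slbp.

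Of 15 genes for transcription and 3′ end processing of histone mRNA, 3 fell, beside 4.90% of all genes tested, and none rose. Slbp itself was at 187, 190 and 196 CPM in control and 193, 182 and 183 with D-serine, which overlapped, with a log2 fold change of -0.04 and a standard error of 0.043. Upf1, a helicase that takes part in histone mRNA decay, went from 317 ± 3.74 to 258 ± 8.0 CPM, with a log2 fold change of -0.30 (standard error 0.041, edgeR adjusted p = 0.0032). Its model shares 138 bases with genes on the opposite strand, and the strand setting of the counting is not given in the sources used here. Srrt, which links the cap-binding complex to RNA processing, had a log2 fold change of -0.29 (adjusted p = 0.0060), and Sympk, a scaffold of the cleavage complex, one of -0.17 (adjusted p = 0.0196). Npat, the coactivator of histone gene transcription, and Lsm10, a part of the U7 particle, had log2 fold changes of -0.18 and 0.35 and missed the threshold (adjusted p = 0.0766 and 0.0553). The call of Upf1 held in 18 of 18 alternatives and that of Srrt in 17, with the exception of leaving out control replicate 2 (adjusted p = 0.0501). That of Sympk was lost without any single control library or without D-serine replicate 3 (adjusted p = 0.0665 to 0.105).

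Of 19 histone chaperones, 1 fell, beside 4.90% of all genes tested, and none rose. It was Asf1b, which carries H3 and H4 in S phase, with a log2 fold change of -0.15 (edgeR adjusted p = 0.0468). Of 25 genes of the G1/S transition and DNA replication, 5 fell, beside 4.90% of all genes tested, and none rose, with a median log2 fold change of -0.07 beside 0.0053 over all genes. They were Pola1, the catalytic subunit of DNA polymerase alpha (-0.26), Ccne2, cyclin E2 (-0.18), the helicase subunits Mcm4 (-0.16) and Mcm2 (-0.14), and Pcna, the sliding clamp (-0.16). The model of Ccne2 shares 1734 bases with Ints8 on the opposite strand. Summed over the list, these genes were at 7504 to 7666 CPM in control and 7157 to 7245 CPM with D-serine, while the clustered histone genes summed higher with D-serine. The calls of Asf1b, Pcna and Mcm4 were lost without any single control library or without D-serine replicate 3, and under upper quartile scaling (adjusted p = 0.104, 0.0790 and 0.0644) or library totals (0.0944, 0.0659 and 0.0537). The call of Ccne2 was lost when the same libraries were left out (adjusted p = 0.0638 to 0.102), and that of Pola1 without control replicate 1 (0.0557) or control replicate 2 (0.0654). Those of Asf1b and Pcna were also lost without D-serine replicate 2 (0.0956 and 0.0622). The call of Mcm2 (edgeR adjusted p = 0.0400) was not followed through the alternatives, so its stability is not known. In bulk RNA, a change in the share of cells in S phase and a change in RNA per cell cannot be told apart.

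Promoter windows (250 bases before to 50 after the start, RefSeq, GRCm38.p6) were matched for 61 members and searched on both strands. The octamer ATTTGCAT, the binding motif of the Oct1 factor, was found in 7 of 17 H2A and 7 of 16 H2B windows, in none of the windows of 6 H1, 10 H3 and 12 H4 genes, and in 1.70% of the windows of all other genes. Windows of some H2A and H2B genes overlap on opposite strands, as for Hist1h2ae and Hist1h2bg, so the same octamer can count for both types. The octamer was found in the window of Hist3h2a and not in that of Hist3h2ba. CCAAT was found in every window of H1, H2A, H2B and H3 and in 3 of 12 H4 windows, beside 37.3% of other genes, and TATAAA in 35 of 61 windows, beside 13.5%. These matches describe the letters of the windows and were not tested against the D-serine values.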

How the data were processed

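Poly(A) RNA of 6 samples (3 control, 3 with D-serine) was sequenced as paired ends from a stranded TruSeq mRNA kit, per the labels' protocols. The authors deposited raw counts per gene, with exon coordinates and summed exon length, per the file headers. The submitters' processing notes name bcl2fastq, Trim Galore, HISAT2, featureCounts of Subread, DESeq2 and the builds GRCm38 and mm10. None of 67 members matched through RefSeq synonyms had the same start there as in the table, so deposited coordinates are given without a build. The strand setting and the treatment of reads with several matches are not given in the sources used here.

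Counts were tested with edgeR 4.0.16 in R 4.3.3, with filterByExpr, TMM scaling, the quasi-likelihood F test without covariates and Benjamini-Hochberg adjustment over 13366 genes (threshold 0.05, two-sided). The standard error is the log2 fold change divided by the square root of F. CPM are deposited counts scaled to TMM-adjusted library sizes. No test was made on sums, and the smallest exact p of 3 samples against 3 is 0.1. The script was tested on simulated data. Alternatives were DESeq2 1.42.0, limma-voom (limma 3.58.1), other scalings and filters, a replicate block, removal of each library's length trend (spline with 5 degrees of freedom) and leaving out each library.

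The members and the 7 gene lists were chosen with earlier results of these data known. Named were members past the threshold, the 2 highest per length and the smallest p of each type, the members next to the filter, and the list genes past the threshold with the 4 smallest p. Other members and list genes are named as descriptions, chosen after their values were seen. Of the neuroblastoma markers, 11 were tested and 1 rose, Mycn, beside 4.84% of all genes tested. Its log2 fold change was 0.15 with a standard error of 0.044 (edgeR adjusted p = 0.0475). No marker of that list fell, beside 4.90% of all genes. How the call of Mycn fared under the alternatives is not given here. Some items are not reported here.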

Additional observations from a re-analysis of the deposited data

How the results depend on the processing

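Of the clustered histone genes, 2 rose instead of 1 under DESeq2, library totals and no filter on low counts, where Hist3h2ba joined Hist3h2a, giving 1 H2B gene. With the replicate block 0 rose, also with the length trend removed together with the block, so 0 H2A genes passed. Same-numbered samples did not deviate together (r = -0.069, 0.020 and -0.019), so the numbers were not taken as pairs. The block left 298 genes overall (178 higher, 120 lower). The block also ended the calls of H2afx (edgeR adjusted p = 0.0600), H3f3b (0.101), Sympk (0.0711), Asf1b (0.101), Ccne2 (0.0750), Mcm4 (0.0908) and Pcna (0.0908). The count of lower genes, 655 in the main test, was 412 under upper quartile scaling and 412 under library totals, 987 without filter, 1417 with the length trend removed and 1249 with that and the block. With the length trend removed 2118 genes passed. In 2 alternatives chosen after seeing the data, removal of the length trend without D-serine replicate 1 gave 2107 genes (1537 lower, with 1 member and so 1 H3 gene, Hist1h3h) and with no filter 2517 genes (1814 lower, with 2 members higher and 1 H2B gene). Leaving out single libraries gave 68 to 1699 genes, 47 to 783 higher and 21 to 916 lower, with 0 to 2 members higher, 0 to 1 H2A and 0 to 1 H2B genes. The fewest were left without control replicate 2. The log2 ratio of the members' sum without the Hist3 cluster, 0.14, was 0.17 under upper quartile scaling and 0.17 under library totals. Where causes are not plain from the setting, the cause was not tested. No direction of a called result reversed. Depth limits the members: 24 had mean counts from above 0 to under 10.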
